A study of Schizosaccharomyces pombe with 4 samples.

Results

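The 10 genes described here act in forming and coating the spores of fission yeast (Schizosaccharomyces pombe). They are spo3, spo13, spo15, psy1, spn5, spn6, meu14, meu10, mde10 and isp3. They were taken from the authors' deposited table by gene symbol, and each symbol occurs there once among 7092 genes. All 10 passed the filter on low values, which asked for a valid test by the authors and for 1 FPKM or more as the mean of the groups. RNA was compared between cells labelled as carrying the plasmid pREP41 with Atf1 inserted and cells labelled as carrying the same plasmid empty. Per the labels, both groups were h90 cells of genotype ade6leu1 ura4 in which pcr1 was replaced by ura4+. Each group had 2 libraries. Cells grew at 30 °C in minimal medium without leucine, first with 20 µM thiamine and then for 24 h without it, which releases the thiamine-repressed nmt1 promoter of the plasmid. Atf1 is a bZIP transcription factor of the stress response, and Pcr1 is its usual partner. The comparison asks how RNA levels change when Atf1 is over-expressed without Pcr1. Whether libraries of one group were grown as separate cultures is not stated in the labels.

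Fission yeast cells of opposite mating type fuse when starved of nitrogen, and the zygote goes through meiosis and makes spores. An h90 strain switches mating type, so its cells can mate with each other. In the second meiotic division the spindle pole bodies change shape and become the site where vesicles fuse into the forespore membrane. This double membrane grows around each nucleus, guided by a ring of proteins at its leading edge and by a septin scaffold. A wall of glucan and chitin is then built between its layers, and a protein coat covers the wall. Most of these genes are known as meiotic genes that are kept low in growing cells. The forkhead factor Mei4 switches on many of them in mid-meiosis.

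The values are the authors' pooled FPKM, fragment numbers scaled by transcript length and library size, with 1 value per group and gene. No SD or n can therefore be given, and no test was computed here. A gene is said to have risen or fallen only where the authors' deposited table gives q under 0.05. Differences are log2(FPKM + 1), Atf1 label minus vector label, which makes the changes of lowly expressed genes look smaller than they are. The depth of the libraries is unknown. Of the genes that the labels name, atf1, pcr1 and, under the Atf1 label, ura4 did not bear them out. The level of atf1 was 54.4 FPKM under the Atf1 label against 60.9 FPKM under the vector label, with q = 0.997 in the authors' deposited table. The deleted gene pcr1 was at 66.4 FPKM under the Atf1 label against 35.8 FPKM under the vector label, and the marker ura4 was listed at 0 under the Atf1 label against 125 FPKM under the vector label. An h90 strain carries the P cassette at mat2, yet its genes were also listed at 0 under the Atf1 label. Under the vector label mat2-Pc was at 49.6 FPKM and mat2-Pi at 14.3 FPKM, and both had q = 0.00809 in the authors' deposited table. Both were picked with their values in view, and near-identical P sequence at the expressed mating-type locus makes their values uncertain. Their part in the values of the 10 genes was not tested. Directions below are therefore between libraries with these labels, not between known levels of Atf1. The median difference was -0.11 over 6219 tested genes, and it was 3.37 over 70 structural RNAs without poly(A) tails. The part of these RNAs in the values below was not tested.

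Stretches of 300 bases before the annotated start of 4 of the genes are shown because Mei4 is known to bind GTAAACA, and Atf1 with Pcr1 is known to bind TGACGT. They are isp3, the member with the highest level, meu14, with the most GTAAACA matches beside spn5, mde10, with 1 match of each motif, and meu10, with none. They were read from RefSeq, build ASM294v3, from 5′ to 3′ on the gene's own strand, and capitals mark either motif on either strand. The isp3 stretch is chrI:95490-95789 on the plus strand, that of meu14 chrII:4065994-4066293 on the plus strand, that of mde10 chrI:1759203-1759502 on the minus strand, and that of meu10 chrIII:1870096-1870395 on the minus strand. The annotated start of meu14 is its first codon, so its stretch lies before the coding sequence.
isp3: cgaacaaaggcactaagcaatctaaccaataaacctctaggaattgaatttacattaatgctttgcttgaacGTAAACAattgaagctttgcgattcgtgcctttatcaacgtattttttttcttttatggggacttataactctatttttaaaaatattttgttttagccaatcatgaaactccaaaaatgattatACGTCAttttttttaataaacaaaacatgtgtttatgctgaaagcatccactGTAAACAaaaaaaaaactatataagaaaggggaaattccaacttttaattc
meu14: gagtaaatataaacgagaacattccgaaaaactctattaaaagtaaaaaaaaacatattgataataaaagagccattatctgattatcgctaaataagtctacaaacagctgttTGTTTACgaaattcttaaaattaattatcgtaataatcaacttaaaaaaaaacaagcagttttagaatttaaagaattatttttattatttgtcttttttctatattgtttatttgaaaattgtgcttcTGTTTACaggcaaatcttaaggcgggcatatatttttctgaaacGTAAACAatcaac
mde10: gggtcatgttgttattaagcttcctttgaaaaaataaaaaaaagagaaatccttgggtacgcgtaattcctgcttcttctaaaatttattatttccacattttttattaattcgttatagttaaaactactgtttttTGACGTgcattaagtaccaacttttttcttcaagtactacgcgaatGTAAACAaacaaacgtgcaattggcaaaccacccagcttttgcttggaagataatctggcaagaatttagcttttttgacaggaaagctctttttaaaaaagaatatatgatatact
meu10: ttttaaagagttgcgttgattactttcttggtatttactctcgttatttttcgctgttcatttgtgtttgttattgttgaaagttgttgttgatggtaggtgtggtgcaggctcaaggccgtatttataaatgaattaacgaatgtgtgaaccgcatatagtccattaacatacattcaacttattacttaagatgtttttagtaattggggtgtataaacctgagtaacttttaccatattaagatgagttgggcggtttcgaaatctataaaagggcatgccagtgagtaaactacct

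GTAAACA was found in these windows of 5 of the 10 genes, psy1, spn5, meu14, mde10 and isp3, and in 17.0% of 5112 protein-coding genes' windows of the same length. In isp3 its matches began 228 and 51 bases before the start. In meu14 they began 186, 57 and 13 bases before it, the first and second of these on the other strand. TGACGT was found in 4 genes, psy1, spn5, mde10 and isp3, and in 6.03% of all windows. It did not overlap a GTAAACA match in any of them. The Ste11 TR box, the site of the factor that starts sexual development, was found in 0 of the 10 and in 1.51% of all windows. The window of psy1 lies inside its neighbour naa40, so its matches stand within an annotated gene. Of the 4 windows shown, those of isp3, meu14 and mde10 each overlap an annotated noncoding RNA (SPNCRNA.606, SPNCRNA.1663 and SPNCRNA.556), and that of meu10 overlaps no annotated gene. A match says only that the letters are there. Of the 5 genes with GTAAACA, isp3 and meu14 were above 0 in their difference between the groups, and psy1, spn5 and mde10 were below 0.

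None of the 10 genes changed by the authors' test. At the threshold used, 0 of 10 were called in the authors' deposited table, with q under 0.05, against 1.95% of all tested genes (1.82% higher and 0.129% lower under the Atf1 label). Their p-values in the authors' deposited table ran from 0.0627 for spo15 to 0.824 for mde10, so 0 were under 0.05 unadjusted, against 10.8% of all tested genes. Their q-values there were 0.734 for spo15, 0.872 for isp3 and 0.997 for the other 8. By value alone, 4 genes were above 0 and 6 below, with a median difference of -0.32, which ran from -0.86 with equal FPKM totals to -0.16 with a pseudocount of 5 among the scalings and pseudocounts tried. Above 0 lay 44.6% of all tested genes and 39.9% of tested protein-coding genes, the kind to which all 10 belong. The median difference over tested protein-coding genes was -0.22. With equal FPKM totals, 23.6% of all tested genes lay above 0. At least 2-fold higher were isp3 and meu10, and at least 2-fold lower were spo15 and spn5. That is 2 of 10 in each direction, near the 17.2% of all tested genes that were as much higher and the 16.6% as much lower.

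**Figure D1:**
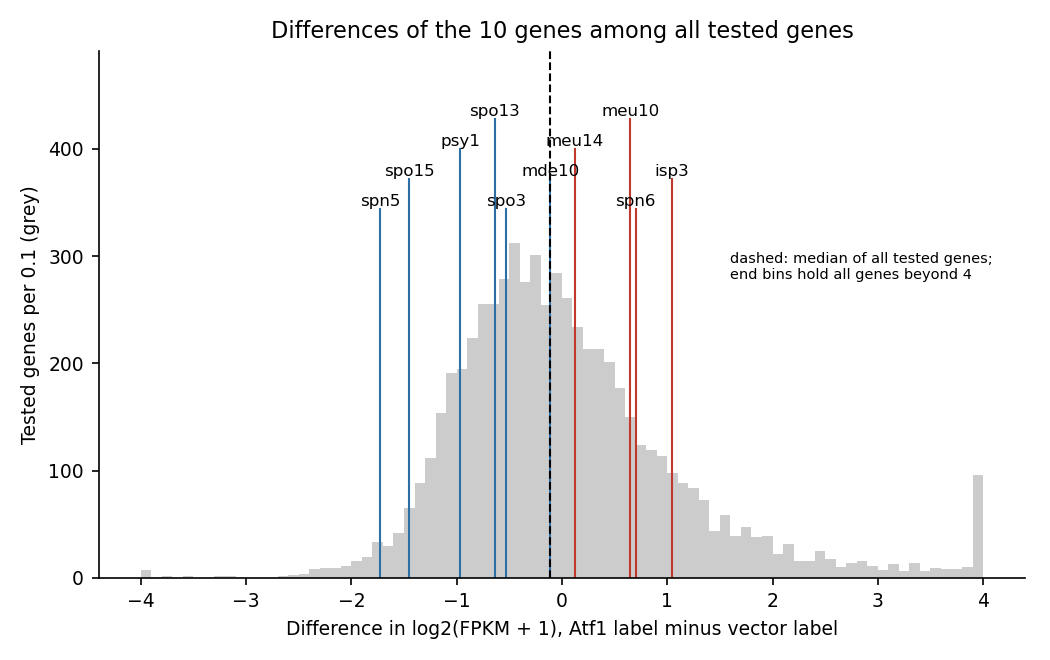
Difference in log2(FPKM + 1), Atf1 label minus vector label (x axis), of all 6219 tested genes (grey, number of genes per 0.1) with the 10 genes as lines, red above 0 and blue below. The end bins hold genes beyond 4. The 10 lines run from -1.73 (spn5) to 1.04 (isp3), with 1.91% of tested genes below spn5 and 85.2% below isp3.

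The 10 genes spanned a wide range of levels. FPKM is per length, so levels can be set side by side. The highest level in both groups was that of isp3, which was 10.3 times that of psy1, the next, under the Atf1 label and 2.50 times under the vector label. The next places were held by psy1, mde10 and meu14 in both groups. The lowest level was that of spn5 under the Atf1 label (1.43 FPKM) and that of meu10 under the vector label (1.02 FPKM). With no spread between libraries, neighbours in this order cannot be said to differ. Of the 10 genes, 8 lay under the median protein-coding gene in each group, which was 20.2 FPKM under the Atf1 label against 23.8 FPKM under the vector label. Only isp3 and psy1 lay over it. The summed level of the 10 genes was 403 FPKM under the Atf1 label against 279 FPKM under the vector label. Without isp3 it was 79.6 FPKM under the Atf1 label against 122 FPKM under the vector label, so the direction of the sum rests on isp3. As a share of all FPKM the 10 genes held 0.0305% under the Atf1 label against 0.0334% under the vector label. In RNA of whole cultures, a different number of spore-forming cells, if any, and a different RNA level per such cell cannot be told apart.

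**Figure D2:**
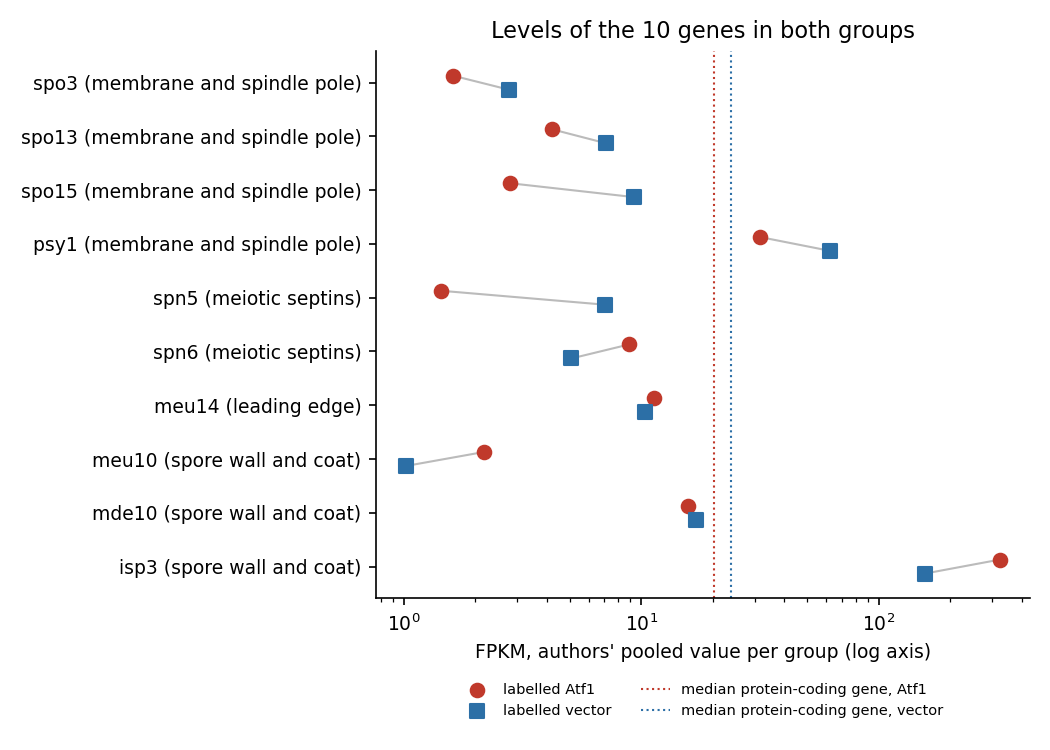
FPKM of the 10 genes on a log axis, red circles for the Atf1 label and blue squares for the vector label, 1 pooled value each, with dotted lines at the median protein-coding gene of each group. Both values of isp3 and psy1 lie right of the dotted lines, and those of the other 8 genes lie left of them.

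The genes of the spindle pole body and the forespore membrane were all 4 below 0, by values that the authors' test does not call. Their median difference was -0.80, and all 4 were below 0 under each pseudocount and scaling tried. These settings reuse the same pooled values, so they add no separate evidence. Only 39.9% of tested protein-coding genes were above 0 as reported, and 23.6% of all tested genes with equal FPKM totals. The coiled-coil protein Spo15 is needed to remodel the meiotic spindle pole body. Its gene spo15 (SPAC1F3.06c, chrI:625173-631345, minus strand, no intron) was at 2.79 FPKM under the Atf1 label against 9.36 FPKM under the vector label, a difference of -1.45, or 3.35-fold lower. That is the smallest p of the 10 (0.0627, q = 0.734 in the authors' deposited table), and 3.68% of tested genes had a lower difference. Spo15 is the longest protein of the set, with 1957 residues, and the gene overlaps gga21 on the other strand. That gene is also in the same locus, the stretch within which Cuffdiff estimates overlapping genes together, and was at 24.8 FPKM under the Atf1 label against 35.6 FPKM under the vector label.

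Spo13 sits with Spo15 on the outer face of the meiotic spindle pole body and activates a Rab GTPase of vesicle transport. Its gene spo13 (SPCC1183.12, chrIII:604366-604955, minus strand, 1 intron) was at 4.23 FPKM under the Atf1 label against 7.14 FPKM under the vector label, a difference of -0.64. It encodes the shortest protein, 138 residues, and overlaps ung1 on the other strand, which was at 30.1 FPKM under the Atf1 label against 26.4 FPKM under the vector label. The other gene of the locus, lig4, was at 7.68 FPKM under the Atf1 label against 9.27 FPKM under the vector label. Both neighbours thus had higher levels than spo13, and lig4 differed in the direction of spo13 while ung1 differed in the other. Spo3 is a forespore membrane protein needed for the membrane to assemble. Its gene spo3 (SPAC607.10, chrI:2052798-2057177, plus strand, no intron) was at 1.61 FPKM under the Atf1 label against 2.77 FPKM under the vector label, a difference of -0.53. The RNA annotated antisense to it was higher than spo3 itself in both groups, at 5.73 FPKM under the Atf1 label against 7.71 FPKM under the vector label.

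Psy1 is a syntaxin-like SNARE of the plasma membrane that moves to the forespore membrane and also serves growing cells. Its gene psy1 (SPCC825.03c, chrIII:1027501-1029219, minus strand, no intron) was at 31.5 FPKM under the Atf1 label against 62.5 FPKM under the vector label, 1.99-fold lower, with q = 0.997 in the authors' deposited table. The locus of psy1 holds 6 genes. Among these, gbs1 overlaps psy1 on the other strand and was at 27.6 FPKM under the Atf1 label against 77.0 FPKM under the vector label. SPCC825.01 was at 21.7 FPKM under the Atf1 label against 40.6 FPKM under the vector label, and pwi1 at 20.3 FPKM under the Atf1 label against 19.0 FPKM under the vector label. Of 4 tested genes in its locus, 3 were below 0 like psy1. With equal FPKM totals the difference of psy1 was -1.62, against -0.97 as reported.

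Among the 10 genes, spn5 and spn6 are the septin genes, and they lay on opposite sides of 0. Septins are GTP-binding proteins that form filaments, and Spn5 and Spn6 build the scaffold that bends the forespore membrane, together with Spn2 and Spn7. The gene spn5 (SPAC24C9.15c, chrI:3074267-3075988, minus strand, 2 introns) was at 1.43 FPKM under the Atf1 label against 7.04 FPKM under the vector label. This was 4.92-fold lower, the lowest difference of the 10 (-1.73), with p = 0.453 and q = 0.997 in the authors' deposited table. Its locus holds 8 genes, more than that of any other member, and 5 of the 6 tested ones beside it were also below 0. Among these sub1 was at 5.63 FPKM under the Atf1 label against 13.8 FPKM under the vector label. The exception, SPAC16A10.01, was at 12.2 FPKM under the Atf1 label against 5.22 FPKM under the vector label. The gene spn6 (SPCC188.12, chrIII:1504891-1506851, plus strand, 1 intron) was at 8.88 FPKM under the Atf1 label against 5.08 FPKM under the vector label, a difference of 0.70, with p = 0.368 in the authors' deposited table. It overlaps dcr1 on the other strand, which was at 3.24 FPKM under the Atf1 label against 3.32 FPKM under the vector label.

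The spn6 level was thus above that of spn5 under the Atf1 label and below it under the vector label. This exchange of order rests on values near the low end of the table. The other 5 septin genes were all tested and 0 were called, against 1.95% of all tested genes. Of these 5, 1 was above 0, and their median was -0.25. The extremes were spn2 (72.5 FPKM under the Atf1 label against 69.4 FPKM under the vector label), and spn7 (2.72 FPKM under the Atf1 label against 5.49 FPKM under the vector label). The small difference of spn2 (0.06) was below 0 under quantile normalization and equal FPKM totals.

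Meu14 forms the ring at the leading edge of the forespore membrane. Its gene meu14 (SPBC1347.03, chrII:4066294-4067457, plus strand, 1 intron) was at 11.4 FPKM under the Atf1 label against 10.4 FPKM under the vector label, a 1.10-fold difference. With both FPKM totals made equal, its difference of 0.12 turned to -0.49, so no direction can be given. The RNA annotated antisense to meu14 was at 1.81 FPKM under the Atf1 label against 3.44 FPKM under the vector label.

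Among the genes of the spore wall and coat, isp3 and meu10 were above 0 and mde10 was at -0.11. Isp3 is the protein of the outermost coat of the spore. Its gene isp3 (SPAC1F8.05, chrI:95790-96966, plus strand, no intron, 182 residues) was at 323 FPKM under the Atf1 label against 156 FPKM under the vector label, 2.07-fold higher, with p = 0.0994 and q = 0.872 in the authors' deposited table. Its difference of 1.04 was the highest of the 10, and 85.2% of tested genes had a lower one. It was 0.38 with equal FPKM totals and above 0 under each pseudocount and scaling tried. Level ranks it above 91.3% of tested protein-coding genes under the Atf1 label and above 88.5% under the vector label.

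The gene isp3 lies 95.8 kb from the end of chromosome I. Within 15 kb of it on either side lay 11 tested protein-coding genes, with a median difference of 2.43, and the authors' deposited table calls 5 of these. For the other 9 members the same median ran from -0.54 (around spn5) to 0.15 (around spn6). Over 161 tested protein-coding genes within 100 kb of a chromosome end, the median difference was 1.27, and 16.1% were called. Over 4798 others it was -0.24, and 1.31% were called. The part of position in the value of isp3 was not tested. The RNA annotated antisense to isp3 was at 13.7 FPKM under the Atf1 label against 14.6 FPKM under the vector label. The ratio of isp3 to it was 23.6 under the Atf1 label against 10.7 under the vector label.

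Meu10 is needed for a normal glucan layer of the spore wall. Its gene meu10 (SPCC1223.12c, chrIII:1866916-1870095, minus strand, 1 intron) was at 2.17 FPKM under the Atf1 label against 1.02 FPKM under the vector label, 2.13-fold higher, with p = 0.708 in the authors' deposited table. The RNA annotated antisense to meu10 was far above it, at 45.3 FPKM under the Atf1 label against 31.0 FPKM under the vector label. A second noncoding RNA of the locus, SPNCRNA.1237, was at 13.1 FPKM under the Atf1 label against 2.64 FPKM under the vector label, and overlaps meu10 on the other strand. All 3 tested genes beside meu10 in its locus were above 0 like it. Mde10 is a metalloprotease of the ADAM family found in the spore envelope. Its gene mde10 (SPAC17A5.04c, chrI:1757450-1759202, minus strand, 1 intron) was at 15.7 FPKM under the Atf1 label against 17.0 FPKM under the vector label, 1.09-fold lower. In RefSeq it overlaps the noncoding RNA SPNCRNA.2787 on the other strand, but of the 10 genes it alone had a Cuffdiff locus to itself. Its difference of -0.11 turned to 0.0081 with median-of-ratios scaling, to 0.069 with quantile normalization and to -0.74 with equal FPKM totals, so no direction can be given for it either.

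The other 9 shared a locus, with 26 genes in all (15 protein-coding and 11 noncoding). Fragments there have to be divided among overlapping genes, so these values are uncertain. Of 24 tested partners, 16 had the sign of their member. Most of the 24 stood beside members below 0, and only 44.6% of all tested genes were above 0. The authors' test called 0 of the 24, against 1.95% of all tested genes. The part of shared loci in the values of the members was not tested. The library kit was stranded, but whether counting used the strand was not given in the sources used here. Whether reads of a gene and of its antisense partner were kept apart is therefore unknown. None of the 10 had a near-identical copy elsewhere.

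**Figure D3:**
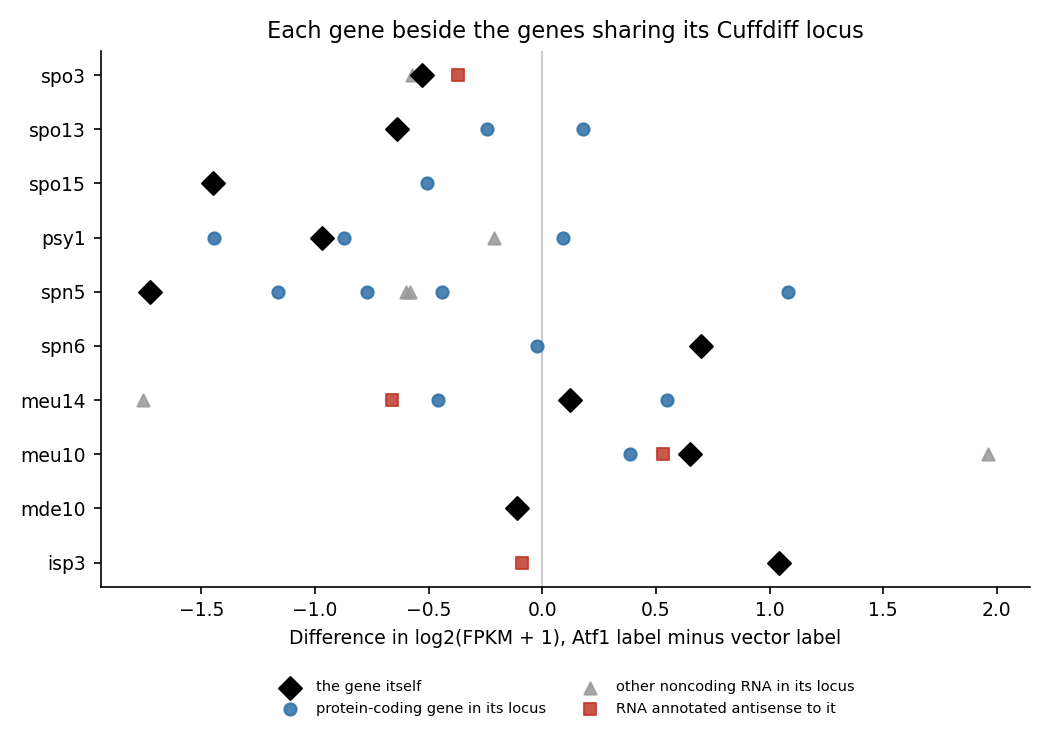
Difference in log2(FPKM + 1), Atf1 label minus vector label (x axis), of each of the 10 genes (black diamonds) and of the tested genes in its Cuffdiff locus. Blue circles are protein-coding genes, red squares the RNAs annotated antisense to the gene and grey triangles other noncoding RNAs. All partners of spo3, spo15 and meu10 lie on their side of 0, while those of spn6 and isp3 lie on the other.

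Other genes of spore formation were described by 7 lists of 49 genes, of which 46 were tested. Of the 46, 0 were called in the authors' deposited table, against 1.95% of all tested genes. Only 1, ste11, had an unadjusted p under 0.05 there, against 10.8% of all tested genes. The median difference of the 46 was -0.27, with 19 above 0. Over tested protein-coding genes the median was -0.22, with 39.9% above 0. Among the regulators, ste11 encodes the factor that starts sexual development. It was at 28.9 FPKM under the Atf1 label against 7.78 FPKM under the vector label, 3.71-fold higher, with p = 0.0007 and q = 0.0608 in the authors' deposited table. Mei4, the forkhead factor of mid-meiosis, had its gene at 3.71 FPKM under the Atf1 label against 6.36 FPKM under the vector label. That gene was chosen after its value was seen. The regulator list as a whole had 4 of 8 tested members above 0. Its median was 0.16, or -0.41 with equal FPKM totals, which put the median of all tested genes at -0.73. Its lowest was rsv1, a zinc-finger transcription factor gene, at 0.837 FPKM under the Atf1 label against 2.22 FPKM under the vector label.

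Genes for starting the membrane at the spindle pole body had 1 of 5 above 0 and a median of -0.66, and the 1 above, the centrin gene cdc31 (17.28 FPKM under the Atf1 label against 17.25 FPKM under the vector label), was below 0 with equal FPKM totals. The lowest was SPCC1739.04c (dms1 in RefSeq), at 23.4 FPKM under the Atf1 label against 46.7 FPKM under the vector label. With equal FPKM totals, 23.6% of all tested genes were above 0. Genes that supply vesicles had 4 of 10 above 0, or 2 of 10 with equal FPKM totals. Their highest was the synaptobrevin gene syb1, a partner SNARE of Psy1, at 192 FPKM under the Atf1 label against 87.6 FPKM under the vector label (q = 0.792 in the authors' deposited table). Their lowest was ypt2, the Rab GTPase that Spo13 acts on, at 48.7 FPKM under the Atf1 label against 80.7 FPKM under the vector label. The SNARE genes psy1 and syb1 thus stood on opposite sides of 0.

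Enzymes for spore wall polysaccharides had 5 of 7 above 0 and a median of 0.31, which became 2 of 7 and -0.28 with equal FPKM totals. That scaling left 23.6% of all tested genes above 0, against 44.6% as reported. The chitin deacetylase gene cda1, whose product makes chitosan for the wall, was at 88.9 FPKM under the Atf1 label against 31.1 FPKM under the vector label, 2.86-fold higher (q = 0.901 in the authors' deposited table). At the low end gas4, a glucan-elongating enzyme of the spore wall, was at 16.3 FPKM under the Atf1 label against 25.7 FPKM under the vector label. For opening the ascus, the glucanase gene agn2 was at 61.9 FPKM under the Atf1 label against 32.4 FPKM under the vector label, with p = 0.0634 in the authors' deposited table, and eng2 at 13.4 FPKM under the Atf1 label against 19.3 FPKM under the vector label. Kinases and meiosis II factors had 2 of 7 above 0, or 0 of 7 with equal FPKM totals. These ran from spo4, a kinase needed for the second division, at 5.60 FPKM under the Atf1 label against 10.9 FPKM under the vector label, to mes1, an inhibitor of the anaphase-promoting complex, at 27.2 FPKM under the Atf1 label against 17.4 FPKM under the vector label.

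**Figure D4:**
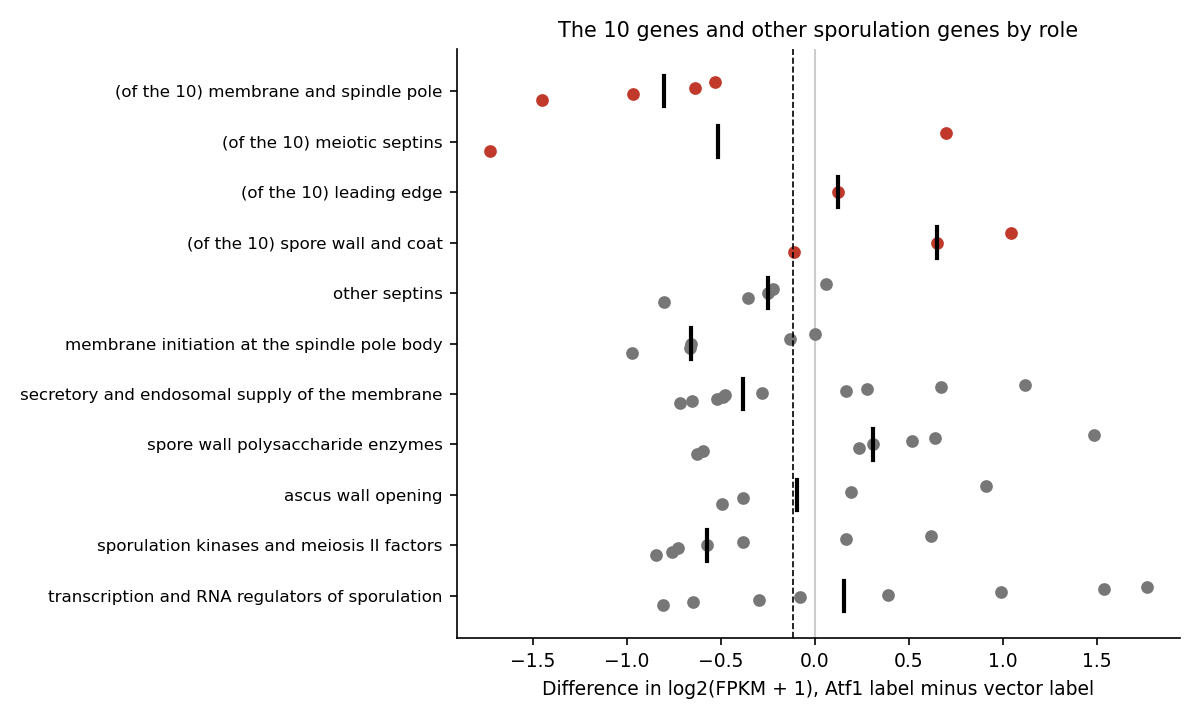
Difference in log2(FPKM + 1), Atf1 label minus vector label (x axis), of the 10 genes (red) and of 46 other sporulation genes (grey) by role, with a bar at each median and a dashed line at the median of all tested genes (-0.11). The 4 membrane and spindle pole genes all lie left of 0, and 5 of the 7 wall enzymes lie right of it, a count that is 2 of 7 with equal FPKM totals. Of all tested genes, 44.6% were above 0, or 23.6% with that scaling. The median over tested protein-coding genes was -0.22.

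**Figure D5:**
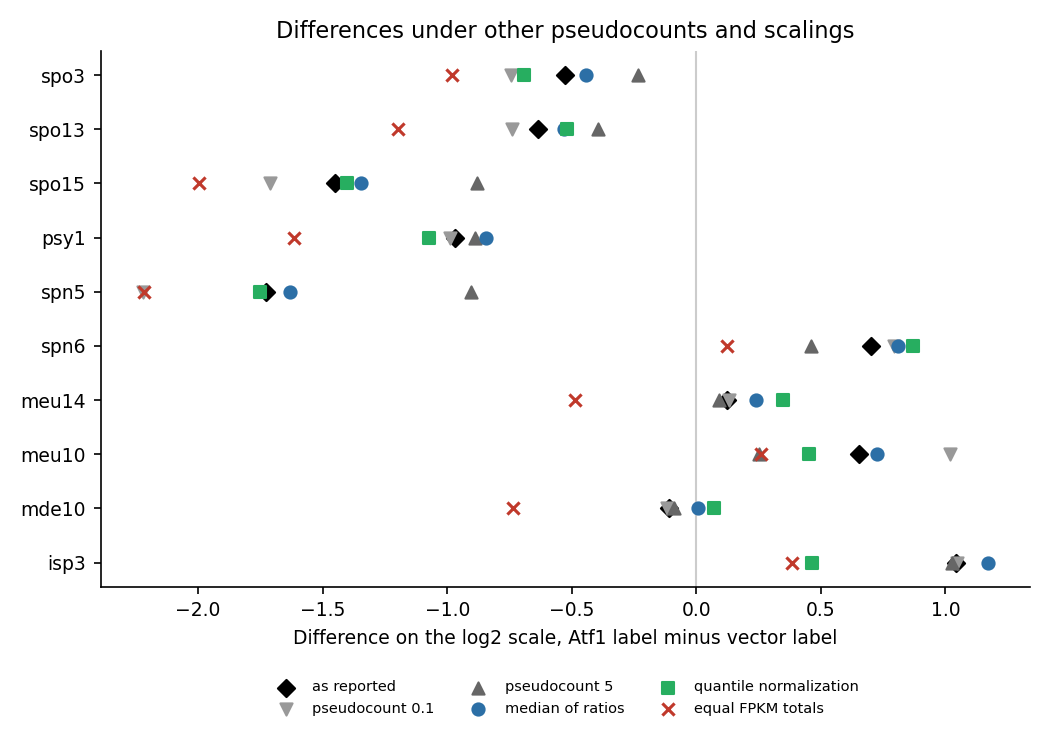
Difference on the log2 scale, Atf1 label minus vector label (x axis), of each of the 10 genes as reported and under 2 other pseudocounts and 3 other scalings. The points of mde10 and meu14 lie on both sides of 0, and those of the other 8 genes stay on 1 side.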

How the data were processed

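Total RNA was extracted with Trizol, and 4 libraries, 2 per group, were prepared from it with a stranded mRNA kit, per the labels' protocols. HISAT2, Cuffdiff and the build ASM294v2 are named, with no version, per the submitters' processing notes. The authors deposited FPKM, pooled to 1 value per group and gene, with a p-value and a q-value per gene, per the file headers. Both deposited tables hold the same FPKM in all 7092 genes. Tested genes had status OK and a mean of at least 1 FPKM, 6219 in all. Protein-coding means a nuclear gene with a protein entry in the table. The planned limma fit, the block and leaving out libraries could not be run without values for each library. The members and lists were chosen with earlier results of these data known. The rule for naming allowed all members, genes in their loci, the genotype genes atf1, pcr1 and ura4 and, in each list, called genes and both extremes. Not every gene in a locus is named.

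Sequences, genes' coordinates and introns come from RefSeq (ASM294v3), matched by gene ID. Of 6714 matched genes, 6698 share an exon or coding boundary with the deposited coordinates, to within 1 base, and all 10 proteins have the deposited length. Motifs were searched on both strands. Copies were searched with BLAST+ 2.17.0 at 95% identity over 50% of a gene. The genes dms1 and vps34 were matched through RefSeq. Computing used matplotlib 3.10.9, pandas 2.3.3, numpy 2.4.6 and Python 3.11.15. Scaling and adjustment were tested on simulated data.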

Additional observations from a re-analysis of the deposited data

How the results depend on the processing

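No paired analysis was possible because every deposited value pools the libraries of its group. Leaving out each library was not run on this account, and the spread between libraries is unknown. The count of 0 called members could only stay 0 under the other settings, so they are no check on it. These were q under 0.01, Benjamini-Hochberg adjustment over the tested genes, no filter, and the 4 members with a mean of at least 10 FPKM. In the authors' deposited table the lowest p of the 10 was 0.0627 and the lowest q 0.734, and all 10 pass the filter. Of the 4 members above 0, the count was 3 to 5 under the pseudocounts of 0.1 and 5 and the 3 scalings. It was 2 of 4 with a mean of at least 10 FPKM, where fewer genes are counted and the median of -0.32 became 0.0054. It was 1 of 3 among members that share no locus with another protein-coding gene, an alternative chosen after seeing the data. Median-of-ratios scaling turned mde10 (-0.11) to 0.0081 and the ascus-opening list (-0.093) to 0.020. Quantile normalization turned mde10 to 0.069 and that list to 0.082. The cause was not tested. Equal FPKM totals (1321551 under the Atf1 label against 835070 under the vector label as deposited) shifted the median of tested genes by -0.61. That scaling moved mde10 to -0.74 and turned meu14 to -0.49, the wall enzymes to -0.28, the regulator list (0.16) to -0.41, and the annotated wall-assembly genes to -0.18, or -0.28 without the members. Median-of-ratios scaling shifted the median by 0.12. With windows of 500 bases, GTAAACA was found in 6 members and in 24.4% of all windows, and TGACGT in 5 members and in 8.14%. The added member was meu10 for both motifs. The Ste11 TR box was then found in 1 member, mde10, and in 2.13% of all windows. As depth is unknown, the precision of members near 1 FPKM is too.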

Other observations

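The deposited gene annotation gives 2 further groupings of spore genes, which were set beside the members after the data were seen. Of 12 genes annotated to ascospore wall assembly, 10 were above 0 in their difference between the Atf1 label and the vector label, with a median of 0.44. Without the 3 members among them these were 8 of 9, with a median of 0.36, and 4 of the 9 are in the lists described above. The authors' deposited table calls 0 of these, against 1.95% of all tested genes. With equal FPKM totals 5 of 12 and 3 of 9 were above 0, so the direction depends on the scaling. That scaling left 23.6% of all tested genes above 0, against 44.6% as reported. Of 14 genes annotated to prospore membrane formation, 4 were above 0, with a median of -0.40, and 0 were called in the authors' deposited table. Without the 3 members these were 4 of 11, with a median of -0.28, and 7 of the 11 are in the lists described above. With equal FPKM totals they were 2 of 14 with a median of -0.95, and 2 of 11 with a median of -0.83 without the members. The highest difference there was that of mug27, a kinase gene of meiosis, at 1.85. The 2 groupings were not tested against each other.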
